A study of Mus musculus with 22 samples.

Results

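Open chromatin of the hippocampus was compared between 3 mice that received lipopolysaccharide (LPS) and 2 mice that received saline, all collected 6 h later. These 5 libraries were chosen from the 22 of the series because they are the only hippocampal pair of LPS and saline groups collected at the same time: the other hippocampal groups got LPS and were collected at 12 or 24 h. The LPS group (CORT+DFP+LPS, replicates 1, 3 and 4) and the saline group (CORT+DFP+saline, replicates 2 and 3) were wild-type adult male C57BL/6J mice. All of them, the saline animals included, had drunk corticosterone (CORT) for 7 days, were injected on day 8 with diisopropyl fluorophosphate (DFP), which blocks acetylcholinesterase irreversibly, and then got CORT intermittently over 5 weeks, as a model of Gulf War Illness. The contrast therefore holds the effect of LPS in animals with this history, and animals without it were not analysed here. Each library came from 1 animal and from 20 to 30 mg of frozen tissue by OMNI-ATAC-seq, in which a transposase cuts open DNA and leaves sequencing adapters there.

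LPS is a component of the outer membrane of Gram-negative bacteria. It is sensed by TLR4 on microglia, macrophages and endothelial cells, which leads through MyD88 and TRIF to NF-kB and interferon regulatory factors and to transcription of cytokine genes. Glucocorticoids such as corticosterone act through the glucocorticoid and mineralocorticoid receptors, both of them abundant in hippocampal neurons, and normally restrain NF-kB. Open chromatin is found at promoters and enhancers, among other sites. A peak of cuts shows accessible DNA in at least some cells, and not that a regulatory region is in use. In bulk tissue, fewer cells of a type and less opening per cell cannot be told apart.

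Of 387357 consensus windows, reaching 250 bp to either side of a summit and placed over the 5 peak lists, 1964 had a peak in all 3 LPS libraries and in neither saline library, and are called gained here. That is 0.507% of all windows. The converse, no peak in any LPS library and a peak in both saline libraries, was seen at 5836 windows, called lost here, or 1.51% of all windows. A gained window needs 3 libraries and a lost window needs 2, so these counts do not stand on equal terms. By the strength of their peaks, ranked as described below, no window passed the test between LPS and saline: 0 of 167276 windows ranked in all 5 libraries were called (limma on normal scores of the ranks, Benjamini-Hochberg adjusted p under 0.05; 0% called; lowest adjusted p 0.947). At an unadjusted p under 0.05 there were 8384 windows, or 5.01%. The authors' deposited table for this comparison lists 23 regions, 2 higher and 21 lower in LPS.

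The promoters that the results below turn on are shown first. They are the promoters at named gained and lost windows (Cd244a and H2-Q6), and those of the gene lists whose rank moved by at least 25 points with no overlap between LPS and saline libraries (Siglech, Il1r1 and Irf7), in each case where the window covers at least 50% of the bases. Each line gives the 250 bases before the gene's start, 5′ to 3′ on the gene's own strand (RefSeq, GRCm38.p6), with matches to the searched motifs in capitals.
Cd244a: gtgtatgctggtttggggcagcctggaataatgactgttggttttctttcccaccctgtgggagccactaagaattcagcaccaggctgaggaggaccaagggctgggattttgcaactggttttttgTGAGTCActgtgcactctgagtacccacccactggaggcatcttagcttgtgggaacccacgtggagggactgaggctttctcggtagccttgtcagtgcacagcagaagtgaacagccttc
H2-Q6: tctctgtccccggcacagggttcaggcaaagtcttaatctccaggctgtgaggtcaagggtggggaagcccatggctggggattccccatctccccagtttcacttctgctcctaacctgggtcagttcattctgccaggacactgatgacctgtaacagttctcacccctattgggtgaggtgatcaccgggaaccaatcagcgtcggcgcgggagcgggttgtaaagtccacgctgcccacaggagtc
Siglech: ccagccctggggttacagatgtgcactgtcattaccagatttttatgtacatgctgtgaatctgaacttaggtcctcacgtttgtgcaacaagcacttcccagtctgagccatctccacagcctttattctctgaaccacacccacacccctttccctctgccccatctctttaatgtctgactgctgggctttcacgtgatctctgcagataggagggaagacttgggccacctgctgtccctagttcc
Il1r1: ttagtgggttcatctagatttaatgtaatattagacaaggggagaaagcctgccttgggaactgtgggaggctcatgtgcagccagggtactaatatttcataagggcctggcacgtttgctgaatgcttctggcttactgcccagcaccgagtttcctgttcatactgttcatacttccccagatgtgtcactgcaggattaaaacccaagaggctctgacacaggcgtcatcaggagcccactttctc
Irf7: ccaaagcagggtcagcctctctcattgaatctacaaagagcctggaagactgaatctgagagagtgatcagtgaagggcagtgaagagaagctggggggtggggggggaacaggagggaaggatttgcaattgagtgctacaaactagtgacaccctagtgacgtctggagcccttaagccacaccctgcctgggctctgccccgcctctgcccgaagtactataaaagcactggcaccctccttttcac

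These lie on chromosome 1 at 171558943 to 171559192 (Cd244a, plus strand), chromosome 17 at 35424600 to 35424849 (H2-Q6, plus strand), chromosome 7 at 55767934 to 55768183 (Siglech, plus strand), chromosome 1 at 40224830 to 40225079 (Il1r1, plus strand) and chromosome 7 at 141266425 to 141266674 (Irf7, minus strand). Both strands were searched for 6 motifs. The capitals in Cd244a are the match TGAGTCA to the AP-1 motif TGANTCA, which starts 122 bases before the gene's start and does not overlap another match. This motif stands in 6.75% of the 32851 promoter sequences of the same length. The other motifs had no match in these 5 stretches of 250 bases: NF-kB (GGG, 2 free bases, then TTTCC, in 1.41% of all promoters), the interferon-stimulated response element (GAAA, 2 free bases, GAAA, 2.98%), the glucocorticoid response element (GNACA, 3 free bases, TGTNC, 0.387%), CRE (TGACGTCA, 1.55%) and PU.1 (GAGGAAGT, 2.44%). Only these spellings were searched, so the lack of a match does not show that a stretch lacks the element. The H2-Q6 stretch, for example, holds GGGGATTCCC, which the NF-kB spelling used here does not cover. The H2-Q6 stretch holds 8 CpG pairs, Il1r1 and Irf7 3 each, and Cd244a and Siglech 2 each, against a median of 6 over all promoters.

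The libraries held 258609, 263249 and 228266 distinct peak intervals in LPS mice and 307140 and 250762 in saline mice. Their means were 250041 ± 19000 in LPS and 278951 ± 39865 in saline (SD, n = 3 and n = 2), and the groups overlapped (exact permutation test, two-sided p = 0.6, where 3 against 2 libraries cannot go below 0.2). The median fold enrichment of a peak was 3.70, 3.51 and 3.56 in LPS and 3.84 and 3.78 in saline, lower in every LPS library (exact permutation test, two-sided p = 0.2, the smallest this design can give). Read depth cannot be read from peak lists and is unknown here. Saline replicate 2 stood apart: 45249 windows had a peak in it and in no other library, against 13881 to 14242 for the LPS libraries and 12448 for saline replicate 3. Between libraries, the ranks of the 167276 windows were most alike between saline replicate 3 and LPS replicate 3 (Spearman's rho 0.895), and every LPS library was nearer to saline replicate 3 (0.829 to 0.895) than saline replicate 2 was (0.788). These rho values are a description over windows that share their library and its depth, which peak lists do not give. As a check of the tissue, 16 of 18 hippocampal neuron markers with a listed gene start had a promoter peak in all 5 libraries, among them Prox1 and Neurod1 of dentate granule cells, and 0 of 16 blood leukocyte and erythroid markers did, with 12 of those at 0 of 5. Thalamic and striatal markers reached 8 of 10, so promoter peaks do not set the hippocampus apart from neighbouring tissue.

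**Figure D1:**
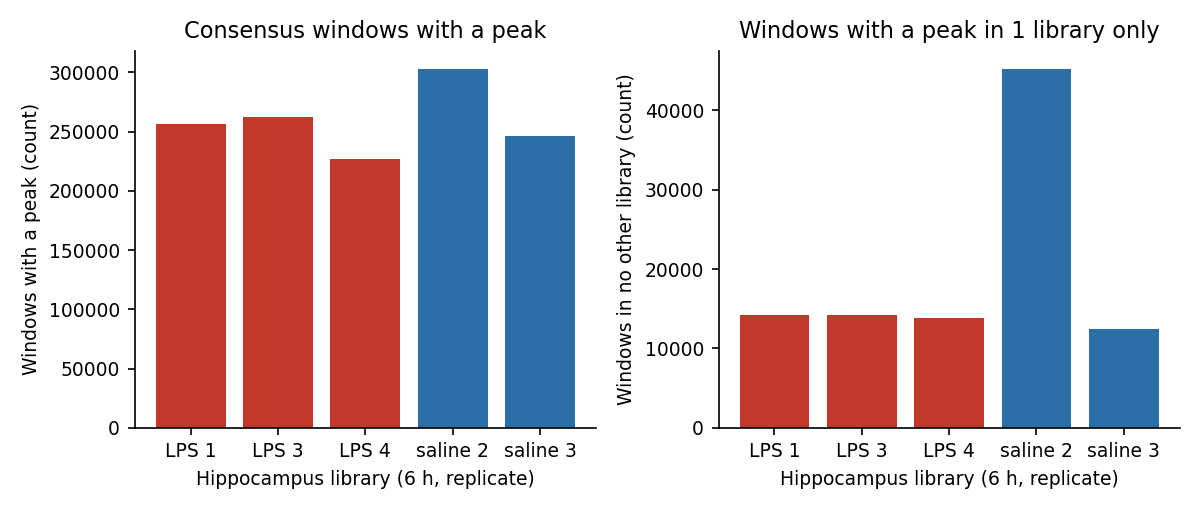
Left, consensus windows with a peak in each hippocampal library; right, windows with a peak in that library and no other (both axes are counts). Each bar is 1 library, LPS in red and saline in blue; saline replicate 2 has 303127 windows with a peak and 45249 of its own.

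Gained and lost windows were weak peaks. Within each library the fold enrichment of the strongest summit in a window was turned into a percent rank, where 100 is the strongest. The median of the mean percent rank was 24.7 for gained and 21.5 for lost windows, against 34.6 over all windows. It was 64.5 for windows with a peak and summit in all 5 libraries, a set chosen for detection in each of them. The highest gained window stood at 71.4 and the highest lost window at 74.5. In the band from 20 to 30, 0.959% of 58694 windows were gained and 2.64% were lost. Of the 24349 windows between 80 and 90 and the 22192 above 90, none was gained or lost. A -log10 q of 5 or more in each library that held the peak was reached at 98 gained windows (4.99% of them) and at 279 lost windows (4.78%). Requiring that strength and no peak of the other group touching the window, a rule added after the data were seen, left 28 gained and 212 lost windows. In 87.9% of gained and 93.2% of lost windows no peak of the other group touched the window by even 1 bp.

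Promoters were fewer among them than among all windows. Gained and lost windows must lack a peak in some libraries and were weak. No comparison matched for peak strength was made, so the shares are a description. A gene start lay within 1 kb of the centre in 5.52% of gained windows (105 of 1904 on chromosomes with listed starts) and in 3.91% of lost windows (221 of 5646), against 7.13% of all windows and 10.9% of those in all 5 libraries. Gene bodies held 56.8% of gained and 60.3% of lost windows, near the 57.3% of all windows.

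**Figure D2:**
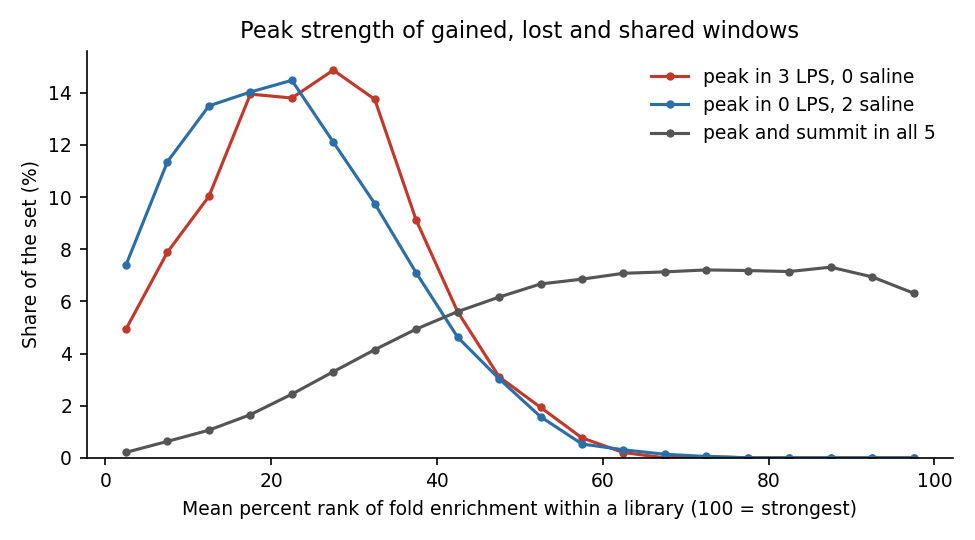
Share of each set of windows (y axis, %) by mean percent rank of fold enrichment within the libraries that hold them (x axis, bands of 5 points, 100 strongest), for windows gained in LPS (red), lost in LPS (blue) and held by all 5 libraries (grey). The medians are 24.7, 21.5 and 64.5. Over all windows, not drawn, the median is 34.6.

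Each library was then left out in turn. This removes a condition of the call, so both counts could only rise. The size of the rise gives the windows that the left-out library alone kept from being called. Without saline replicate 2 there were 8511 gained and 18284 lost windows, and without saline replicate 3 there were 7151 and 51085. Leaving out an LPS library gave 4137 to 6229 gained and 7815 to 11631 lost. With equal numbers of peaks, the 50000 strongest of each library, the balance turned, with 922 gained and 792 lost.

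Among the 10 strongest gained windows, 1 lay at the start of Cd244a, which encodes the SLAM-family receptor 2B4 of natural killer and other immune cells (chromosome 1, 171558859 to 171559359, GRCm38; centre 84 bp from the start shown above). Its percent rank was 77.6, 77.5 and 33.4 in the LPS libraries, and no peak touched it in either saline library. LPS replicates 1 and 3 were alike there and LPS replicate 4 was weaker. The highest gained window of all lay 283 bp from Hspa2, a chaperone gene of the HSP70 family, and 841 bp from its start (chromosome 12, 76403279 to 76403779). It ranked 70.8, 74.1 and 69.2 in the LPS libraries, but peaks of both saline libraries touched it without reaching 50% overlap. A window in Pcdh10, which encodes a protocadherin of neuronal cell adhesion, ranked 65.3, 47.9 and 78.0 in LPS, with no touching saline peak. In Ptbp2, which encodes a splicing regulator of developing neurons, the values were 63.1, 65.7 and 51.5. Tsacc was gained 438 bp from its start at 57.5, 61.4 and 60.5, with a touching peak in both saline libraries. Windows in Nox1, an NADPH oxidase gene, at 58.2, 53.5 and 63.8, and in Timeless, a gene of replication and the clock, at 58.2, 50.8 and 63.8, followed. A saline peak touched the Nox1 window in 1 library and the Timeless window in none.

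The lost window with the highest rank lay on chromosome Y, 90828736 to 90829236, with no touching peak in LPS and percent ranks of 78.0 and 70.9 in the saline libraries. It overlaps 1 of the regions in the authors' deposited table described below. Chromosome Y held 38 windows in all. The sources used here do not say how reads matching several places were handled, so this window is uncertain. Next was H2-Q6, a class I gene of the major histocompatibility complex, where the window centre lay 71 bp from the gene start shown above (chromosome 17, 35424529 to 35425029). No LPS peak touched it, and its percent ranks were 74.1 and 69.1 in saline. The H2-Q genes are near-identical copies, and the same gap in the sources makes this window uncertain too. Others were in Atp6v0a4, a subunit of the vacuolar proton pump (89.1 and 52.3 in saline), 602 bp from Cblc, a ubiquitin ligase gene (87.7 and 52.3), and in Serpinb6c, a serine protease inhibitor gene (62.3 and 77.3). In Atp6v0a4 and Cblc saline replicate 2 was the stronger library, and in Serpinb6c saline replicate 3. The window 30692 bp from Tuba3b, at 74.7 and 65.1, was touched by a peak in all 3 LPS libraries.

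Peak strength was then compared over the 167276 windows with a peak and a summit inside the window in all 5 libraries, ranked from 0 to 100 over those same windows in each library (shared rank). The median shift, LPS minus saline, was 0.169 rank points, and 5% of windows lay below -19.4 and 5% above 18.8. The median SD among the LPS ranks of a window was 7.87 points and the median gap between the saline ranks 9.92. In 16575 windows (9.91%) every LPS library ranked above both saline libraries, and in 16075 (9.61%) every LPS library ranked below both. With a mean shift over 30 points there were 1157 and 1308 of these. For 3 against 2 libraries, random group labels separate the groups fully, in either direction, with a probability of 0.2 (exact permutation). The shares of 9.91% and 9.61% combined did not exceed that level. Separation of the groups at a window or promoter is therefore a description here, and by itself no evidence of a shift. Measured by the highest summit of the whole peak interval instead, a choice added after the data were seen, limma called 2 windows (adjusted p 0.03). Sik3, a salt-inducible kinase gene, ranked 78.9, 82.6 and 78.2 in LPS and 0.0699 and 0.0835 in saline. Plcxd2 ranked 99.0, 99.3 and 99.5 in LPS and 1.64 and 0.298 in saline. These ranks can come from summits outside the window. The Sik3 window had a summit inside it in all 5 libraries, so it was also in the main test, which did not call it. The Plcxd2 window had one in 4 libraries and was not ranked in the main test. No window among those named next passed the test, and each had an adjusted p of 0.947 (limma, Benjamini-Hochberg over 167276 windows).

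Among windows ranked higher in LPS, 1 in Nrg1, the gene of the ErbB ligand neuregulin 1, had shared ranks of 63.8, 73.8 and 72.5 in LPS and 19.7 and 12.1 in saline (chromosome 8, 32348054 to 32348554), a difference of 54.1 points. All 3 LPS libraries lay far above both saline libraries there. A window in St13, which encodes a cofactor of HSP70, had 54.0, 51.7 and 72.5 in LPS and 3.99 and 12.1 in saline. Near Slco2a1, the prostaglandin transporter gene, at 16571 bp, they were 68.1, 63.1 and 77.9 in LPS and 1.94 and 33.7 in saline, with the lowest value in saline replicate 2. A window in Mkks, 254 bp from the start of Slx4ip, had 60.3, 55.2 and 62.5 in LPS and 9.07 and 7.23 in saline. Its peak interval holds a stronger summit outside the window, and by that summit it ranked 72.3, 71.3 and 80.2 in LPS and 77.4 and 72.3 in saline, so the groups overlapped.

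Zfp64, a zinc finger gene, had the largest shift downwards, 286 bp from the gene (chromosome 2, 168955623 to 168956123). The shared ranks were 19.1, 0.0729 and 16.9 in LPS and 84.3 and 80.7 in saline, a difference of -70.5 points. By the highest summit of the whole interval the same window ranked 86.3, 83.8 and 83.1 in LPS and 83.4 and 79.7 in saline, so the groups overlapped. This did not hold for Il1rapl2, a gene of the interleukin-1 receptor family with roles at synapses, where the window ranked 18.0, 51.7 and 19.5 in LPS and 87.6 and 81.3 in saline, and 16.9, 49.6 and 18.5 against 86.9 and 80.2 by the highest summit. A window 10248 bp from Myl1, a muscle myosin light chain gene, had 14.6, 0.577 and 19.5 in LPS and 72.4 and 70.7 in saline. In Fermt1, a gene of integrin activation, the ranks were 18.0, 49.2 and 15.0 in LPS and 92.3 and 68.8 in saline.

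**Figure D3:**
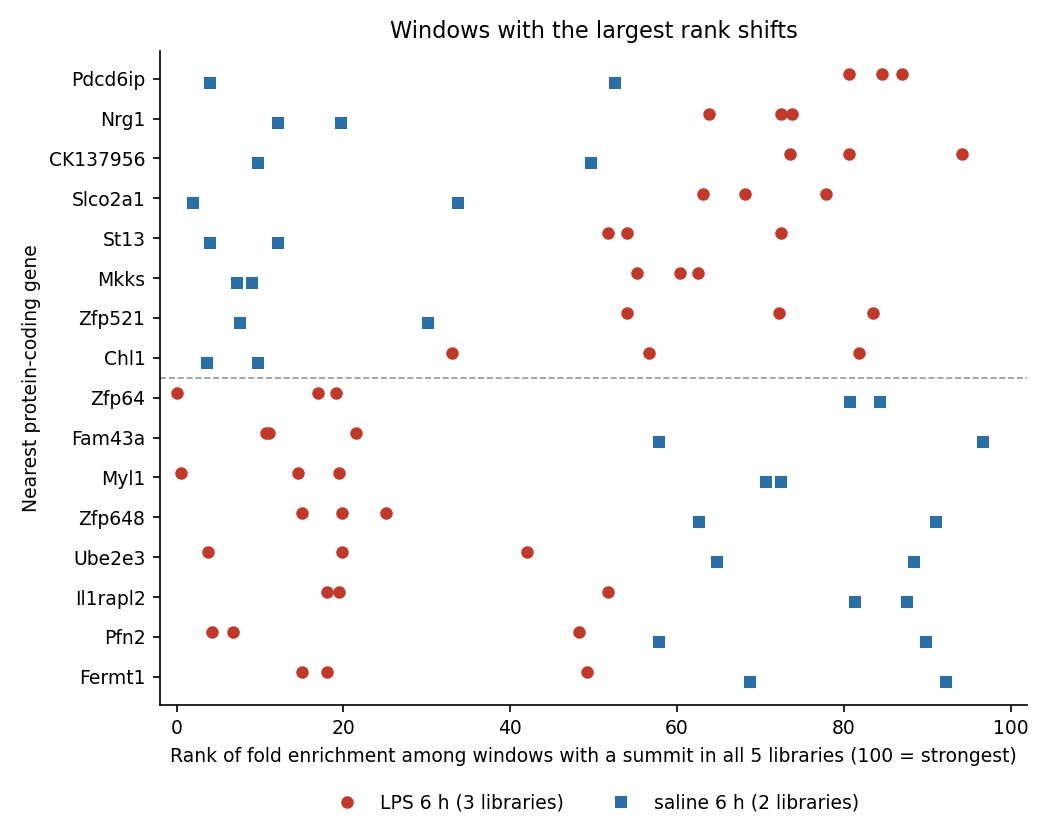
Shared rank of fold enrichment (x axis, 0 to 100, 100 strongest) in each of 3 LPS libraries (red circles) and 2 saline libraries (blue squares) at 8 windows per direction with the largest shifts among those whose groups do not overlap, named by the nearest protein-coding gene (y axis). The largest shift is -70.5 points near Zfp64, and none passed the test (adjusted p 0.947).

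Genes that sense LPS and carry its signal were next taken from lists of known genes, with each window given to the nearest protein-coding gene within 100 kb. Shares of each list stand in brackets after its counts, to be read beside 0.507% gained and 1.51% lost over all windows, 9.91% higher and 9.61% lower over all ranked windows, and an overall median shift of 0.169 points. These shares rest on few windows per list and were not tested. LPS sensing genes had 1 gained and 5 lost of 165 windows (0.606% and 3.03%). The gained window lay in Tlr4, the LPS receptor gene (chromosome 4, 66828609 to 66829109), with percent ranks of 28.3, 53.5 and 27.6 in LPS. Another window, 97339 bp from the body of this gene, had shared ranks of 32.0, 49.2 and 48.7 in LPS and 19.7 and 26.4 in saline. In every LPS library there were 5 higher and 8 lower of 73 ranked (6.85% and 11.0%). The promoters of 7 of its 10 genes with a listed start had a peak in all 5 libraries, and none of these promoters had ranks apart between LPS and saline. Irak2, which encodes a kinase of this pathway, ranked 92.8, 90.4 and 96.1 in LPS and 95.3 and 88.4 in saline, and Traf6, a ubiquitin ligase downstream of it, 85.2, 77.8 and 89.4 in LPS and 91.7 and 86.1 in saline.

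NF-kB subunits and inhibitors had 0 gained and 4 lost of 198 windows (0% and 2.02%), and 9 higher and 8 lower of 94 ranked (9.57% and 8.51%). At promoters, where over all 17507 promoter windows 9.89% ranked higher and 7.27% lower in every LPS library, 1 of 10 promoters of this list ranked higher and 3 lower. The higher one was Bcl3, which encodes a nuclear partner of NF-kB, with 25.7, 25.9 and 33.0 in LPS and 14.6 and 12.1 in saline. The lower ones were Nfkbie, an inhibitor gene (49.3, 36.2 and 30.0 in LPS, 64.7 and 50.6 in saline), Nfkb2, a subunit gene (32.9, 15.9 and 13.9 in LPS, 36.4 and 38.2 in saline), and Tnfaip3, which encodes the deubiquitinase A20 that ends the signal (84.3, 77.4 and 84.5 in LPS, 89.0 and 91.7 in saline). Nfkbia, the inhibitor gene that NF-kB itself switches on, overlapped between groups, at 52.2, 64.4 and 71.0 in LPS and 45.0 and 67.6 in saline.

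Cytokine and chemokine genes had 0 gained and 4 lost of 203 windows (0% and 1.97%), among the lost 1 in Cxcl9 and 1 in Il1rn, and 7 higher and 12 lower of 89 ranked windows (7.87% and 13.5%). Only 5 of their 15 promoters with a listed start had a peak in all 5 libraries, and 6 had a peak in none, Il1b, Cxcl2 and Lif among these. The Il6 promoter ranked 98.5, 98.6 and 99.1 in LPS and 98.2 and 98.3 in saline, a difference of 0.456 points. Tnf had a promoter peak in 2 LPS libraries and 1 saline library, Cxcl10 in 2 and 2, Il1a in 2 and 0, and Cxcl1 in 1 and 2. Cytokine receptor and JAK-STAT genes had 1 gained and 10 lost of 453 windows (0.221% and 2.21%), and 19 higher and 15 lower of 204 ranked (9.31% and 7.35%). The Il1r1 promoter, the start of the gene of the interleukin-1 receptor, ranked 25.1, 32.1 and 33.0 in LPS and 51.1 and 60.3 in saline, a difference of -25.7 points over the sequence shown above. Ifngr2, a receptor chain for interferon gamma, ranked 60.3, 65.7 and 67.9 in LPS and 47.7 and 53.7 in saline.

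Interferon response genes had 0 gained and 3 lost of 129 windows (0% and 2.33%), and 7 higher and 5 lower of 52 ranked (13.5% and 9.62%). The Irf7 promoter, of a transcription factor that amplifies type I interferon, ranked 26.6, 19.2 and 25.6 in LPS and 56.7 and 42.2 in saline, a difference of -25.6 points. All LPS libraries lay below both saline libraries, and the whole peak interval gave 25, 17.8 and 24.4 in LPS and 54.7 and 40.6 in saline. Irf9 also ranked lower in every LPS library, at 77.9, 84.8 and 89.5 in LPS and 89.6 and 89.8 in saline. Of the 10 ranked promoters of this list 2 were thus lower and 0 higher, where 7.27% and 9.89% of all promoter windows were. Irf1 and Irf8 overlapped between groups, and Isg15, Ifitm3, Gbp2 and Oas1a had no promoter peak in any of the 5 libraries. Acute phase and prostaglandin genes had 0 gained and 3 lost of 127 windows (0% and 2.36%), and 3 higher and 5 lower of 63 ranked (4.76% and 7.94%). The promoter of Lcn2, an acute phase gene of astrocytes and endothelium, had a peak in 1 LPS library and 0 saline libraries, and that of Ptges, a prostaglandin E synthase gene, in 2 LPS libraries and 0 saline libraries. The promoter of Saa3, a serum amyloid gene of the acute phase, had one in 1 LPS library and both saline libraries.

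Glucocorticoid targets and stress axis genes had 4 gained and 12 lost of 643 windows (0.622% and 1.87%), and 34 higher and 19 lower of 286 ranked windows (11.9% and 6.64%). Their promoters ranked higher in every LPS library at 4 of 16 genes and lower at 1, with a median shift of 4.89 points, against 0.638 over all promoter windows. Other lists had medians of like size, with 6.06 for hippocampal neuron markers, 4.76 for immediate early genes and 3.87 for clock genes. Fkbp5, a glucocorticoid-induced co-chaperone of the receptor, ranked 85.1, 88.1 and 92.5 in LPS and 68.8 and 84.1 in saline. Ddit4, an inhibitor of mTORC1 signalling, ranked 63.0, 60.0 and 71.0 in LPS and 45.4 and 58.7 in saline. In both, saline replicate 2 was the lowest of the 5 libraries and saline replicate 3 lay within 2 points of the nearest LPS library. Tsc22d3, which encodes the anti-inflammatory protein GILZ, ranked 84.6, 89.3 and 83.5 in LPS and 82.8 and 78.6 in saline, and Errfi1 90.6, 89.1 and 89.6 in LPS and 87.2 and 87.4 in saline. Sult1a1, a sulfotransferase gene, was the lower one, at 73.1, 75.0 and 75.1 in LPS and 81.4 and 88.4 in saline. A gained window in Fkbp5 was weak, at 4.04, 7.50 and 18.2 in LPS, and one 29698 bp from Crh, the corticotropin-releasing hormone gene, stood at 16.9, 29.5 and 14.7.

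Immediate early genes, which neurons switch on within minutes of activity, had 0 gained and 4 lost of 355 windows (0% and 1.13%), and 19 higher and 18 lower of 174 ranked (10.9% and 10.3%). Of their 15 ranked promoters 1 was higher in every LPS library, Npas4 (64.4, 63.7 and 62.3 in LPS, 58.7 and 59.1 in saline), and none was lower. The Fos promoter ranked 71.3, 62.3 and 76.7 in LPS and 68.6 and 58.5 in saline, and that of Jun 63.0, 62.0 and 71.2 in LPS and 58.2 and 63.4 in saline, so both overlapped.

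Markers of microglia, the brain's resident macrophages, had 0 gained and 4 lost of 222 windows (0% and 1.8%), and 11 higher and 9 lower of 104 ranked (10.6% and 8.65%). The Siglech promoter, of a microglial sialic acid receptor, had the largest shift of any listed promoter, with 45.2, 25.9 and 19.5 in LPS and 75.4 and 55.2 in saline, -35.1 points over the sequence shown above. A window 2664 bp from Siglech was lost, at 58.0 and 33.2 in saline. Other microglial promoters overlapped between groups: Cx3cr1 ranked 45.8, 67.7 and 36.1 in LPS and 64.6 and 57.0 in saline, and C1qb 66.6, 72.2 and 68.3 in LPS and 68.4 and 78.6 in saline. P2ry12, a purinergic receptor gene of microglia, leaned the other way, at 26.0, 11.7 and 22.5 in LPS and 3.73 and 14.0 in saline, also with overlap. The median shift over the 8 ranked microglial promoters was -5.24 points, with 1 lower in every LPS library and 0 higher.

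Endothelial and mural markers had 1 gained and 9 lost of 340 windows (0.294% and 2.65%), the lost ones including 1 in Erg, an endothelial transcription factor gene (47.7 and 45.6 in saline), and Flt1, a VEGF receptor gene (41.5 and 37.8 in saline). The gained window of this list also lay in Erg, at 20.5, 3.10 and 13.1 in LPS, so this gene had windows of both kinds. In this list there were 7 higher and 16 lower of 137 ranked (5.11% and 11.7%), with a median shift of -1.54 points. Astrocyte markers had 1 gained and 10 lost of 461 windows (0.217% and 2.17%), and 19 higher and 27 lower of 217 ranked (8.76% and 12.4%). Oligodendrocyte lineage markers had 3 gained and 5 lost of 367 windows (0.817% and 1.36%), and 21 higher and 22 lower of 184 ranked (11.4% and 12.0%). Hippocampal neuron markers had 4 gained and 27 lost of 1211 windows (0.33% and 2.23%), and 48 higher and 45 lower of 502 ranked (9.56% and 8.96%). In Zbtb20, a gene of hippocampal neurons, a window ranked 8.19, 1.85 and 10.7 in LPS and 69.2 and 47.5 in saline. Inhibitory neuron markers had 4 gained and 6 lost of 565 windows (0.708% and 1.06%), and 23 higher and 21 lower of 244 ranked (9.43% and 8.61%). At the start of Dlx2, a homeobox gene of these neurons, the promoter ranked 39.4, 32.7 and 46.5 in LPS and 9.37 and 10 in saline, and by the whole interval 37.5, 30.8 and 44.6 in LPS and 8.70 and 23.2 in saline. Its sister gene Dlx1 ranked lower in every LPS library, at 49.9, 40 and 52.9 in LPS and 65.1 and 54.2 in saline, so 1 of 14 promoters of this list was higher and 1 lower.

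Markers of cells that a dissection or blood could bring in were counted too. Thalamic and striatal markers had 5 gained and 6 lost of 590 windows (0.847% and 1.02%), and 19 higher and 25 lower of 246 ranked (7.72% and 10.2%), with 8 of 10 promoters at a peak in all 5 libraries. Choroid plexus and ependymal markers had 1 gained and 1 lost of 95 windows (1.05% and 1.05%), and 0 higher and 5 lower of 37 ranked (0% and 13.5%). Blood leukocyte and erythroid markers had 0 gained and 3 lost of 95 windows (0% and 3.16%), and 2 higher and 3 lower of 33 ranked (6.06% and 9.09%). The part of cell mixture in the results above was not tested.

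Cholinergic and esterase genes, which include the targets of DFP, had 1 gained and 4 lost of 385 windows (0.26% and 1.04%), and 11 higher and 12 lower of 161 ranked (6.83% and 7.45%). Chrm2, a muscarinic receptor gene, ranked 56.6, 46.6 and 60.9 in LPS and 70.8 and 64.8 in saline at its promoter. The promoter of Ache, the esterase that DFP inhibits, was weak in all libraries, at 0.548, 5.36 and 5.07 in LPS and 0.494 and 8.22 in saline. Synaptic genes had 15 gained and 38 lost of 2538 windows (0.591% and 1.5%), and 101 higher and 89 lower of 938 ranked (10.8% and 9.49%). Among these, Dlg2, a postsynaptic scaffold gene, ranked 58.0, 53.2 and 76.6 in LPS and 52.8 and 34.9 in saline at its promoter, and Gria2, an AMPA receptor gene, 65.6, 62.2 and 80.4 in LPS and 54.7 and 57.2 in saline. Syn2, a synaptic vesicle gene, ranked lower, at 83.1, 85.8 and 89.5 in LPS and 90.1 and 93.9 in saline, so 2 of 11 synaptic promoters were higher and 1 lower. Clock genes had 7 gained and 10 lost of 600 windows (1.17% and 1.67%), and 20 higher and 33 lower of 269 ranked (7.43% and 12.3%). Rora, a nuclear receptor gene of the clock, ranked 64.4, 68.3 and 64.4 in LPS and 81.3 and 76.1 in saline at its promoter. Cry2, a repressor of the clock, ranked 58.4, 59.3 and 71.4 in LPS and 47.9 and 55.9 in saline.

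**Figure D4:**
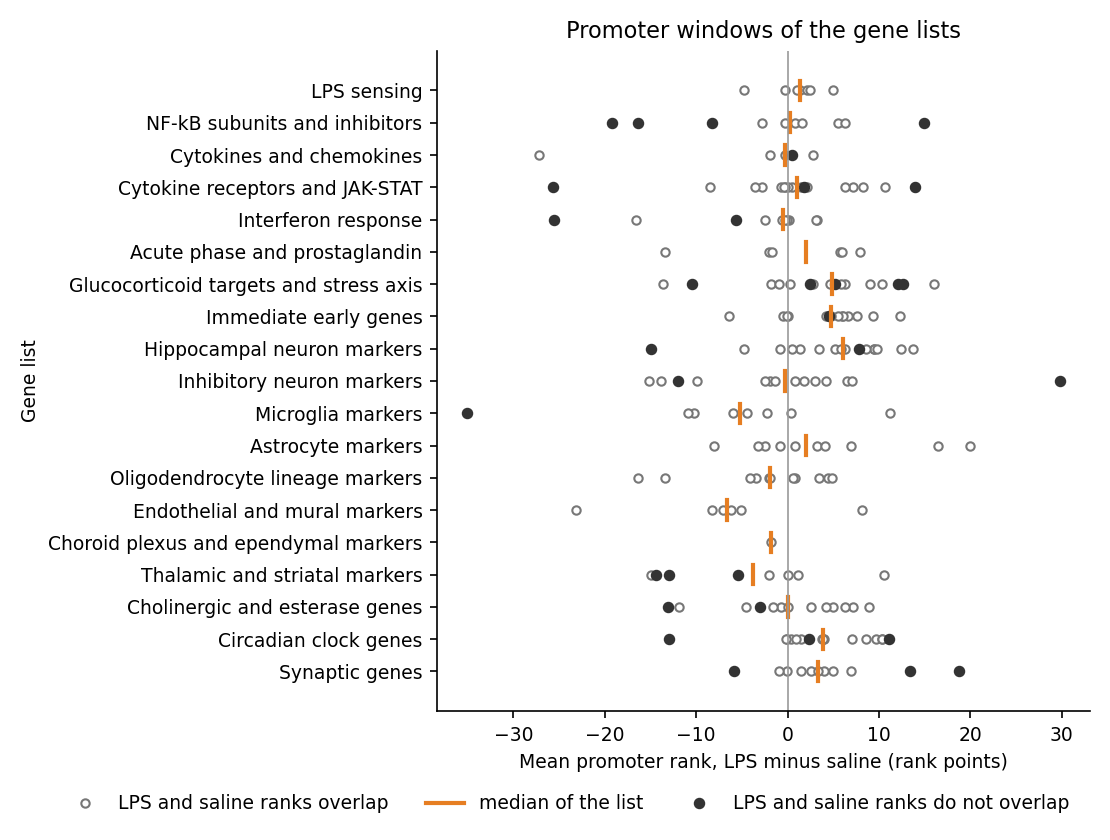
Difference in mean promoter rank, LPS minus saline, in rank points (x axis) for genes of each list with a promoter window ranked in all 5 libraries (y axis, lists; blood markers had none). Filled points have no overlap between LPS and saline libraries, open points overlap, and orange bars are medians; Siglech at -35.1 and Dlx2 at 29.8 lie furthest out.

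The authors compared the same groups with csaw, which tests read counts in windows. Of the 23 regions in the authors' deposited table, 13 lie in a protein-coding gene and 1 lies within 1 kb of a listed gene start. Its lowest FDR, 0.000224, stands at an exon of Sh2b2, an adaptor gene of growth factor and insulin signalling (GRCm38 chromosome 5, 136224401 to 136224960), and at chromosome Y, 90828751 to 90829010, both lower in LPS in the authors' deposited table. Sh2b2 had a peak in all 5 libraries, with shared ranks of 73.5, 25.9 and 45.1 in LPS and 93.1 and 64.8 in saline, so LPS replicate 1 lay above saline replicate 3. The region on chromosome Y had a peak in both saline libraries and in no LPS library. It is as uncertain as the lost window there, since the handling of multiply matching reads is not given. The region near the start of 1700060C20Rik, at 678 bp and inside D630003M21Rik (FDR 0.00549 in the authors' deposited table), had a peak in 2 of 3 LPS libraries and in both saline libraries.

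All 21 lower regions had a peak in saline replicate 2, and 17 had one in saline replicate 3. In LPS replicates 1, 3 and 4 there was a peak at 11, 12 and 8 of them. At 7 of the 21 all 5 libraries had a peak, and at 5 both saline libraries and no LPS library did: in F13a1, in Auts2, on chromosome Y, and at regions whose nearest protein-coding genes are Prdm1 (103143 bp away) and Chordc1 (458907 bp away). At the regions in Cdk8, a kinase gene of the Mediator complex (FDR 0.00829 in the authors' deposited table), near Eci2 (FDR 0.0111) and near Srp9 (FDR 0.0315), saline replicate 2 was the only 1 of the 5 libraries with a peak. At Ahi1, a gene of the primary cilium (FDR 0.00829 in the authors' deposited table), LPS replicate 3 and saline replicate 2 had one. These regions were chosen on these libraries, so the counts are a description.

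At 5 of the lower regions a window was ranked. The window nearest to Zdhhc25, a gene 409242 bp away, ranked 66.0, 58.9 and 33.0 in LPS and 98.6 and 85.8 in saline, lower in every LPS library (adjusted p = 0.947 by limma). Pax5, a B cell transcription factor gene, ranked 3.29, 6.21 and 10.7 in LPS and 82.2 and 3.64 in saline, so saline replicate 2 alone was high. The window near Hes1, a Notch target gene, ranked 67.1, 80 and 67.1 in LPS and 92.9 and 68.1 in saline. In Antxr1, a collagen receptor gene, the window that overlaps the region most ranked higher in every LPS library, at 43.1, 64.3 and 54.0 in LPS and 40.2 and 41.8 in saline, against the direction in the authors' deposited table. That region is 1410 bp wide and holds 3 windows. The authors' deposited table places the region on chromosome 3 at 50282501 to 50282810 in an intron of Slc7a11, the cystine and glutamate antiporter gene, while in the gene table used here that gene ends 82126 bp away.

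The regions higher in LPS were 60 bp on chromosome 6 at 10690701 to 10690760, 1209612 bp from the nearest protein-coding gene, Ndufa4 (FDR 0.00213 in the authors' deposited table), and an intron of Snd1 on chromosome 6 at 28929301 to 28929510 (FDR 0.0381). The first had a peak in LPS replicate 1 only, and the Snd1 region in LPS replicates 1 and 4 and saline replicate 3. Snd1, which encodes a nuclease of the RNA-silencing machinery, held 3 gained and 0 lost of 184 windows (1.63% and 0%). Over all windows the shares were 0.507% and 1.51%. Several other genes also had 3 gained and 0 lost windows, and the count was not tested.

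**Figure D5:**
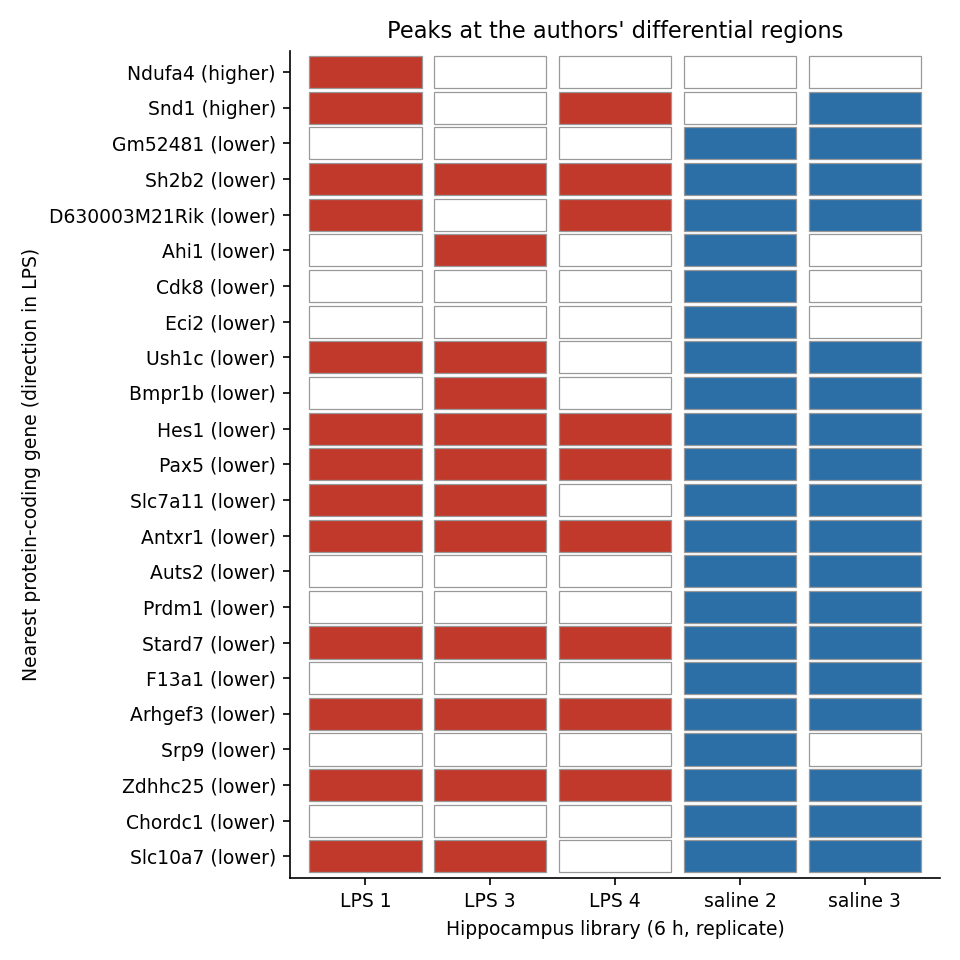
Presence of a deposited peak (filled) at the 23 regions of the authors' deposited table for LPS against saline at 6 h, by library (x axis, 3 LPS libraries in red, 2 saline libraries in blue) and nearest protein-coding gene with the direction in LPS (y axis, the 2 higher regions on top, then by FDR). Saline replicate 2 has a peak at all 21 lower regions; Gm52481 is the region on chromosome Y.

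The other LPS groups of the hippocampus were set against the same 2 saline libraries, so their tables are no separate evidence. Side by side, the authors' deposited tables gave the Cdk8 region FDRs of 0.00829, 0.00146 and 0.00563 at 6, 12 and 24 h and the Ush1c exon 0.0111, 0.000111 and 0.00158, lower in LPS each time. The region on chromosome Y had 0.000224, 0.00146 and 0.000211 in the authors' deposited tables, and the Auts2 region 0.0245 and 0.00399 at 6 and 12 h. In the LPS libraries at 12 and 24 h, which did not choose the windows, gained windows had a peak in 60.0, 72.5 and 65.1% at 12 h and in 67.4, 62.0 and 61.0% at 24 h, where 59.6 to 67.8% of all windows had one. Lost windows had a peak in 26.1, 39.1 and 39.6% at 12 h and in 43.1, 30.4 and 26.9% at 24 h. No further saline library of the hippocampus stands beside these values. Gained windows were chosen for a peak in every LPS library at 6 h, and lost windows for none there. Lost windows thus held peaks in fewer libraries by choice, and all windows were under neither rule. A further library can therefore hold gained windows more often than lost ones whatever its treatment. Whether gains or losses lasted to 12 or 24 h was not tested.

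Frontal cortex libraries of the same animals took no part in choosing the windows. Gained windows had a peak in 34.0% ± 3.82 of cases in cortex of LPS mice at 6 h and in 30.0% ± 2.16 in cortex of saline mice (SD, n = 3 and n = 2), 4.02 percentage points apart (exact permutation test, two-sided p = 0.4). Lost windows had a peak in 30.1% ± 5.28 in LPS and 37.2% ± 10.4 in saline, -7.13 points apart (exact permutation p = 0.6). Without cortex saline replicate 2 the second difference turned to 0.234 points. Over all windows cortex had a peak in 49.1% ± 4.01 in LPS and 50.9% ± 5.05 in saline. The gained difference exceeded the SD of each group and the lost difference exceeded that of LPS but not of saline, and neither passed the exact test, which cannot go below 0.2 here.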

How the data were processed

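Peak lists of 5 hippocampal OMNI-ATAC-seq libraries, 1 animal each, were analysed. The tools listed, per the submitters' processing notes, are MACS2 2.2.7.1, Bowtie2 2.4.4, FastQC 0.11.9 and Trim Galore 0.6.7, with the build GRCm38 (mm10) and no roles or settings. There is 1 peak list per library. In the deposited peak lists the authors give, per summit, a whole-number score, a fold enrichment (a ratio over the local background) and -log10 of the p-value and q-value. The weakest summit of each list had a -log10 p of 2.0, and the lowest -log10 q ran from 0.525 to 0.643 between libraries. Weak peaks therefore count as present. Filters, the shift for the transposase, the removal of duplicates and the treatment of multiply matching reads are not given in the sources used here. The authors' deposited csaw tables give regions, a direction and gene labels, plus a value that was taken to be the FDR on a scale of -10 log10, and hold no fold changes. Read depth is unknown, so no interval on a count of reads was possible.

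Several summits of 1 interval were counted as 1 interval. Windows reaching 250 bp to either side of a summit were placed, strongest first, and a library held a window where a peak overlapped 50% of the shorter. Shared rank used the fold enrichment of the strongest summit inside the window, among windows with 1 in all 5 libraries. It was tested with limma 3.58.1 (R 4.3.3) on normal scores, with Benjamini-Hochberg adjustment over all windows. This measure was settled after the data were seen, since summits outside the window had entered an earlier version. Library values were tested by exact permutation, where 3 against 2 libraries cannot give p under 0.2. Python 3.11.15, numpy 2.4.6, pandas 2.3.3, scipy 1.17.1 and matplotlib 3.10.9 were used, and the scripts were tested on simulated data.

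Genes came from RefSeq (GRCm38.p6): the nearest protein-coding body within 100 kb, and gene starts from a promoter table that covers 17492 of 21887 protein-coding genes and none on chromosome 18. The 20 lists hold 364 genes, all matched. The members and lists were chosen with earlier results of these data known. Named were all regions of the authors' deposited 6 h table, the 10 strongest gained and lost windows, the 10 largest rank shifts per direction, the 5 genes per direction with the largest net of gained minus lost windows, and of each list up to 2 gained and 2 lost windows and 1 rank shift per direction. The text prints a selection of these, and the listed promoters named were chosen after their values were seen. The labels name separate animals but no batch. Alternatives were other peak thresholds, overlaps, window sizes, rank measures and gene distances, and each library left out in turn.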

Additional observations from a re-analysis of the deposited data

How the results depend on the processing

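Keeping only peaks whose -log10 q reached 5 gave 870 gained and 4381 lost windows, and with the 50000 strongest peaks per library 922 gained and 792 lost. Strong windows touched by no peak of the other group, an alternative added after the data were seen, numbered 28 gained and 212 lost. Leaving out 1 library in turn removes a condition of the call, so counts could only rise. They ran from 4137 to 8511 gained and from 7815 to 51085 lost. The highest lost count came without saline replicate 3, where the 45249 windows held by saline replicate 2 alone count as lost. A q of 0.05, overlaps of 1 bp or 80% and windows of 150 bp to either side left both counts within 1.5 times.

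Rank calls numbered 0 under 7 other settings and with each library left out (0 to 0, lowest adjusted p 0.232 by limma, without saline replicate 3, where 19920 windows had an unadjusted p under 0.05). The highest summit of the interval gave 2 calls, and the summit inside the window or else the interval's highest gave 3. Both measures were added after the data were seen. The windows of the latter 3 calls had a summit inside them in only 2 libraries each. The cause was not tested. The difference in peak number ran from -57098.7 to -720.667 with libraries left out, the value nearest 0 without saline replicate 2. At an FDR of 0.01 the authors' deposited table keeps 6 regions. In cortex the gained difference ran from 2.49 to 6.21 points and the lost difference from -14.5 to 0.234, the last without cortex saline replicate 2. Gene lists held 44 gained and 160 lost windows within 100 kb and 38 and 130 within 10 kb. No paired analysis was possible because the LPS and saline groups share 1 replicate number. With 2 saline libraries, single animals decide most counts.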

Other observations

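Genes with more gained than lost windows were Lrrc4c, which encodes a netrin-G ligand of synapses (6 gained and 2 lost of 208 windows), and, with 3 gained and 0 lost each, Diaph2 (of 62), Gpd2 (of 47), Grm5, a metabotropic glutamate receptor gene (of 159), and Mrtfa (of 79). Genes with more lost than gained windows were Dab1, the adaptor of reelin signalling (2 gained and 13 lost of 414), Magi2, a synaptic scaffold gene (0 and 9 of 350), Auts2 (5 and 12 of 345), and the cell adhesion genes Cadm1 (0 and 6 of 187) and Cntn1 (0 and 6 of 113). Most of these genes are long and hold many windows: Lrrc4c spans 1314 kb, Dab1 1125 kb, Magi2 1485 kb and Auts2 1106 kb. In the order named, the gained shares of the first 5 genes were 2.88, 4.84, 6.38, 1.89 and 3.8%. The lost shares of the other 5 were 3.14, 2.57, 3.48, 3.21 and 5.31%. Over all windows 0.507% were gained and 1.51% lost. The genes were picked as the extremes of 18821 genes with a window, and these counts were not tested.

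By chromosome, gained windows made up 0.414% (chromosome 7) to 0.669% (chromosome X) of windows, leaving out chromosome Y with 0 gained of 38. Lost windows made up 1.14% (chromosome X) to 1.70% (chromosome 17), and 1 of 38 on chromosome Y.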
